A study of Mus musculus with 6 samples.

Results

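The 9 genes described here encode enzymes of the mevalonate arm of cholesterol synthesis, the steps that lead from acetyl-CoA to squalene. They were chosen by name as the rows Acat2, Hmgcs1, Mvk, Pmvk, Mvd, Idi1, Fdps, Ggps1 and Fdft1 of a table of 21719 genes, and all 9 were found. MPC5, the source of the RNA, is a mouse podocyte line, podocytes being the cells that cover the filtering capillaries of the kidney. All 6 samples were labelled high-glucose. There were 3 libraries labelled Setdb2WT (genotype WT) and 3 labelled Setdb2KO (genotype KO). Not given in the sources used here are how the knockout was made, whether it is 1 clone and whether libraries of a group come from separate cultures. The p-values therefore measure only the spread between these libraries, which may be technical.

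In this pathway acetyl-CoA units are condensed to HMG-CoA, which is reduced to mevalonate, phosphorylated and decarboxylated to the isoprene unit isopentenyl diphosphate. Isoprene units are joined to geranyl and farnesyl diphosphate, where the pathway forks. One branch joins 2 farnesyl groups to squalene and goes on to cholesterol, and the other makes geranylgeranyl diphosphate and further chains for protein prenylation, dolichol and ubiquinone. Transcription of most enzymes of the sterol route is known to be raised by the transcription factor SREBP-2 when the endoplasmic reticulum is low in sterol, together with the factors NF-Y and Sp1. In podocytes the slit diaphragm, the junction between foot processes, is known to lie in cholesterol-rich membrane.

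The promoters of Hmgcs1, Mvk and Mvd, whose RNA fell, are shown with that of Ggps1, whose RNA did not, because SREBP-2 and NF-Y are known to act at promoters of this pathway. The sequences are those of RefSeq on GRCm38.p6, ending before the start site or before any annotated exon, 5′ to 3′ on the strand of the gene. Capitals mark matches to the NF-Y box and, in Hmgcs1 alone, also the sterol regulatory element core. The Hmgcs1 stretch is chr13:119690101-119690350 (plus strand), that of Mvk chr5:114444061-114444268 (plus strand), that of Mvd chr8:122443423-122443672 (minus strand) and that of Ggps1 chr13:14063490-14063603 (minus strand). The Mvk stretch is the part between Mvk and Mmab, its neighbour on the other strand, that holds no exon of either gene in the GENCODE M21 annotation. The Ggps1 stretch lies between the first exons of Ggps1 and those of Arid4b, which is read on the other strand.
Hmgcs1: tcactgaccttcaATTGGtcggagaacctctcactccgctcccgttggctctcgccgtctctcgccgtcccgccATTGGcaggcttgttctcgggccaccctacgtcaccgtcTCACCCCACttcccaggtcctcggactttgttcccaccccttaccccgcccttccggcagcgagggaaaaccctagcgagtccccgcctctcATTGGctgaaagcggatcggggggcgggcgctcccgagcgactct
Mvk: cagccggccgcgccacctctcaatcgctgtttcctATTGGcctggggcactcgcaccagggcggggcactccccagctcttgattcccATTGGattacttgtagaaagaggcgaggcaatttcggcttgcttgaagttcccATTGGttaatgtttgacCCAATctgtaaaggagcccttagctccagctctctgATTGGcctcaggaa
Mvd: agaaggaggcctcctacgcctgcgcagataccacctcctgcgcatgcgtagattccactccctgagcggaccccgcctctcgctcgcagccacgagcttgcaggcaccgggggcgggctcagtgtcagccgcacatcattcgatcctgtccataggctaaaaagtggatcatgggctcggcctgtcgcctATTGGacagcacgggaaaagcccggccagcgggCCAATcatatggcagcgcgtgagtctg
Ggps1: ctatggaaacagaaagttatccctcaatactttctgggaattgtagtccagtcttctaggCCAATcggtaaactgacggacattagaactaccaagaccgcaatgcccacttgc

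Promoter windows of 300 bases, 250 before and 50 after the start, were listed for 7 of the 9 genes (Fdps and Fdft1 were not). The letters TCACNCCAC, the core of the sterol regulatory element, were found on either strand in 1 of these 7, Hmgcs1, with the first base at position -137 from the start. The same letters lie in 1.24% of all 32851 windows listed. CCAAT, the NF-Y box, was found on either strand in 6 of the 7 genes, against 37.4% of all windows, and it was absent from the window of Acat2. At least 3 NF-Y boxes were present in 3 of them, Hmgcs1 with 4, Mvk with 5 and Ggps1 with 3, against 3.37% of all windows. All motifs were searched on both strands. A gene was counted if any of its windows matched (Pmvk had 2 windows), whereas the shares are of windows. GGGCGG, the GC box to which Sp1 binds, was found in 5 of the 7 genes, against 35.7% of all windows, and CACGTG, the E-box, in 0 of the 7, against 7.15%. No match overlaps another in these windows. Of the 3 NF-Y boxes of Ggps1 the 2 farther ones lie outside the printed stretch, as does that of Hmgcs1 at position 11. A match in this window does not show that a factor binds there. The search was for exact letters, so the lack of a match does not show that a gene has no such element.

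Each library held 36461449 to 37129174 counted reads, with a non-coding share of 0.701% to 0.734% under the label Setdb2WT and of 1.14% to 1.21% under Setdb2KO. The targeted gene Setdb2 had 12, 10 and 9 reads under the label Setdb2WT and 17, 15 and 25 under Setdb2KO (log2 fold change 0.73, SE 0.38, adjusted p = 0.088, edgeR). It was not lower under Setdb2KO, so every direction below is between labels. Of 11 podocyte markers in the table, 6 fell, 2 rose and 1 did not pass among the 9 tested, and their summed level was 2069 to 2080 CPM (read counts scaled to library size with TMM, the trimmed mean of M-values) against 1493 to 1576 CPM. Wt1, a defining podocyte factor, had at most 2 reads in any library. Over all genes tested, 42.3% were lower and 41.5% higher (adjusted p under 0.05, edgeR). Summed levels of markers of other cell types were lower under Setdb2KO as well. Parietal epithelium markers (4 of 5 lower) summed to 3047 to 3090 against 1068 to 1151 CPM, and tubule markers (3 of 4 tested lower) to 1090 to 1104 against 433 to 455 CPM. Mesangial markers (5 of 5 tested lower) summed to 90.9 to 95.02 against 16.7 to 17.6 CPM. Endothelial markers (2 of 3 tested lower) came to 9.64 to 10.2 against 6.23 to 7.49 CPM and immune markers (1 of 2 tested lower) to 13.7 to 15.2 against 9.38 to 11.8 CPM. The endothelial cadherin Cdh5 and the leukocyte antigen Ptprc had at most 1 and 5 reads in any library. The part of these differences in the results was not tested, and in bulk RNA fewer cells of a type and less RNA per cell cannot be told apart.

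Of the 9 genes, 8 were lower under Setdb2KO and 1, Ggps1, was slightly higher. At an adjusted p under 0.05 (quasi-likelihood F test of edgeR, Benjamini-Hochberg over 13509 genes), 8 fell, against 42.3% of all genes tested, and 1 rose, against 41.5%. A call in either direction was made for 83.8% of all genes tested, so the calls alone say little about these 9. In all 8 genes that fell, the groups did not overlap, which held for 42.7% of all genes tested, and Ggps1 was without overlap in the other direction, as were 42.0%. All 8 fell at least 2-fold, as did 16.2% of all genes tested, and 6 fell at least 4-fold, as did 4.74%. The median log2 fold change of the 9 genes was -2.43, beside 0.0045 over all genes tested. Each gene had at least 633 reads in every library, so counting error was small and none of the 9 was lost to the filter on low counts. The 9 genes together took 0.246% to 0.249% of a library under Setdb2WT and 0.0488% to 0.0502% under Setdb2KO.

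**Figure D1:**
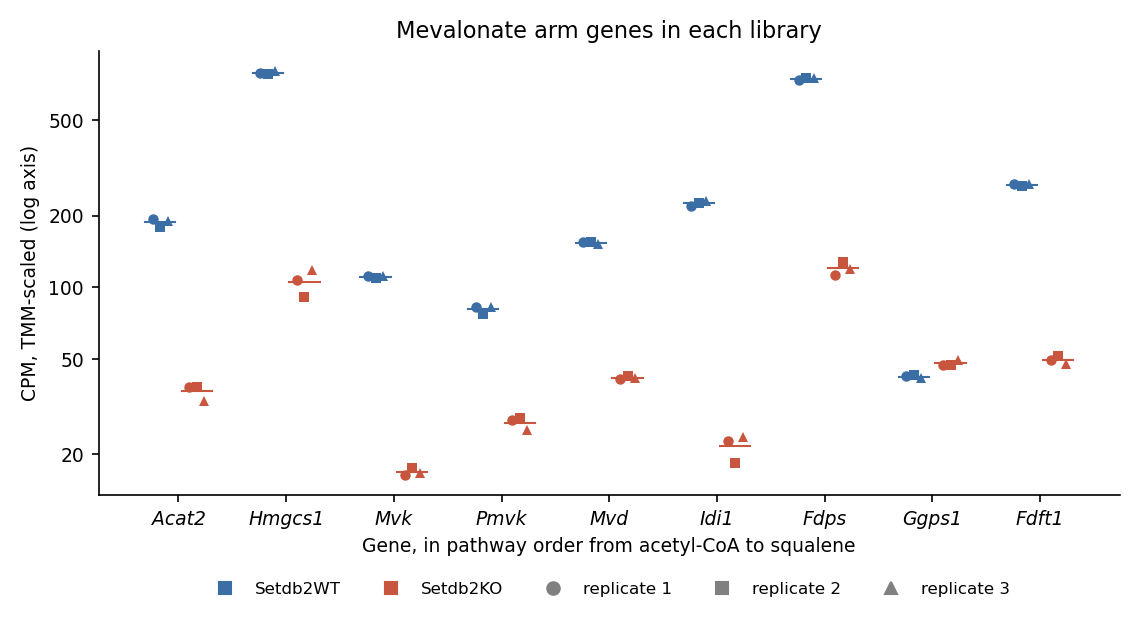
Level of each gene in each library, in TMM-scaled CPM on a log axis, with genes in pathway order, the symbol giving the replicate number and the short line the mean of 3 libraries. For 8 genes all libraries labelled Setdb2KO lie below all labelled Setdb2WT, and for Ggps1 they lie slightly above.

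The first steps build HMG-CoA. Acat2 (Entrez 110460), the cytosolic thiolase that joins 2 acetyl-CoA, stood at 194, 179 and 190 CPM under Setdb2WT and at 38.3, 38.4 and 33.5 CPM under Setdb2KO. The groups did not overlap, and Acat2 fell 5.10-fold (log2 fold change -2.35, SE 0.05, adjusted p = 2.96e-14, edgeR). Hmgcs1 (Entrez 208715), the cytosolic synthase that adds the third acetyl unit, stood at 791, 781 and 805 CPM against 107, 90.9 and 118 CPM. The groups were far apart, and Hmgcs1 fell 7.50-fold (log2 fold change -2.91, SE 0.07, adjusted p = 5.52e-14, edgeR). Of the 7 genes with a promoter window, it is the one with a match to the letters of the sterol regulatory element core shown above.

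The phosphorylation steps differed among themselves in the size of the fall. Mvk (Entrez 17855), the kinase that phosphorylates mevalonate, stood at 111, 110 and 112 CPM against 16.4, 17.5 and 16.8 CPM. It fell 6.58-fold (log2 fold change -2.72, SE 0.04, adjusted p = 1.45e-15, edgeR). Pmvk (Entrez 68603), which adds the second phosphate, stood at 83.0, 77.8 and 83.0 CPM against 27.8, 28.4 and 25.3 CPM. Its fall of 2.99-fold was the smallest of the 8 (log2 fold change -1.58, SE 0.05, adjusted p = 1.61e-12, edgeR). Mvd (Entrez 192156), which decarboxylates the product to isopentenyl diphosphate, stood at 155, 154 and 152 CPM against 41.3, 42.6 and 41.9 CPM, a 3.67-fold fall (log2 fold change -1.87, SE 0.04, adjusted p = 6.51e-15, edgeR). The 95% intervals of the log2 fold change ran from -2.81 to -2.62 for Mvk, from -1.69 to -1.47 for Pmvk and from -1.95 to -1.80 for Mvd, and none of the 3 overlap.

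Idi1 (Entrez 319554), the isomerase that makes dimethylallyl diphosphate, showed the largest fall of the 9. It stood at 220, 226 and 230 CPM under Setdb2WT and at 22.8, 18.5 and 23.8 CPM under Setdb2KO, a 10.4-fold fall (log2 fold change -3.38, SE 0.07, adjusted p = 1.07e-14, edgeR). Only 1.34% of all genes tested had a log2 fold change at or below this one. Fdps (Entrez 110196), which joins isoprene units to geranyl and farnesyl diphosphate, stood at 738, 749 and 750 CPM against 113, 127 and 120 CPM. It fell 6.21-fold (log2 fold change -2.63, SE 0.04, adjusted p = 8.95e-16, edgeR).

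At the fork, the gene of the sterol branch fell and that of the geranylgeranyl branch did not. Fdft1 (Entrez 14137), squalene synthase, stood at 271, 266 and 271 CPM under Setdb2WT and at 49.7, 51.8 and 47.9 CPM under Setdb2KO, a 5.41-fold fall (log2 fold change -2.43, SE 0.04, adjusted p = 8.38e-16, edgeR). Ggps1 (Entrez 14593), which makes geranylgeranyl diphosphate, stood at 42.6, 42.8 and 41.7 CPM against 47.3, 47.6 and 49.6 CPM. The groups did not overlap for this gene either, but the rise was only 1.14-fold (log2 fold change 0.19, SE 0.04, 95% interval 0.090 to 0.28, adjusted p = 0.0015, edgeR), and 42.0% of all genes tested had a log2 fold change at or above it. Under total-count scaling, which moves the median log2 fold change of all genes tested to 0.16, that of Ggps1 was 0.34.

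**Figure D2:**
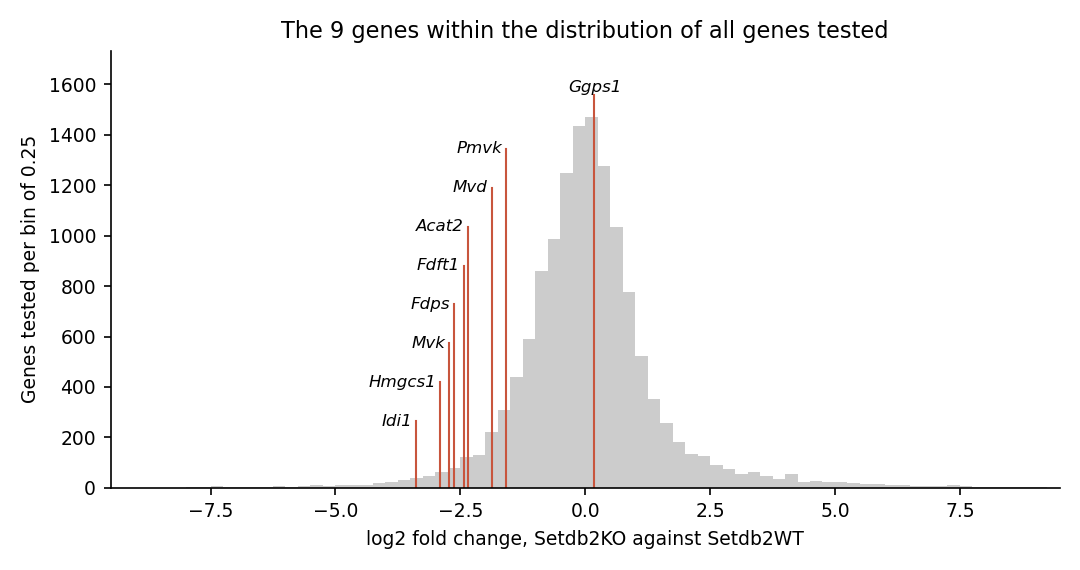
Number of genes tested per bin of 0.25 in log2 fold change (Setdb2KO against Setdb2WT, the outermost bins holding any value beyond them), with the 9 genes as vertical lines whose height has no meaning. Ggps1 at 0.19 lies in the middle of the distribution, and the other 8 lie between -3.38 and -1.58 in its lower tail.

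Read counts of 2 genes can be compared within a library with no scaling between libraries. The log2 ratio of Fdft1 to Ggps1 reads was 2.67, 2.64 and 2.70 under Setdb2WT and 0.072, 0.12 and -0.051 under Setdb2KO. With no account of gene length, Fdft1 thus had over 6 times the reads of Ggps1 in each library labelled Setdb2WT and about as many in each labelled Setdb2KO. The ratio fell by 2.62 on the log2 scale, or 6.15-fold, with an SD of 0.031 and 0.089 in the groups (n = 3 each; two-sided exact permutation test p = 0.1, the smallest that 3 against 3 libraries can give). For Fdps to Ggps1 the log2 ratio was 4.12, 4.13 and 4.17 against 1.26, 1.42 and 1.27. That ratio fell by 2.82, or 7.07-fold (SD 0.028 and 0.090, n = 3 each; exact permutation p = 0.1, and 0.1 after adjustment over the 2 ratios). Both differences are far larger than the spread between libraries, although this design cannot bring either exact test to 0.05.

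**Figure D3:**
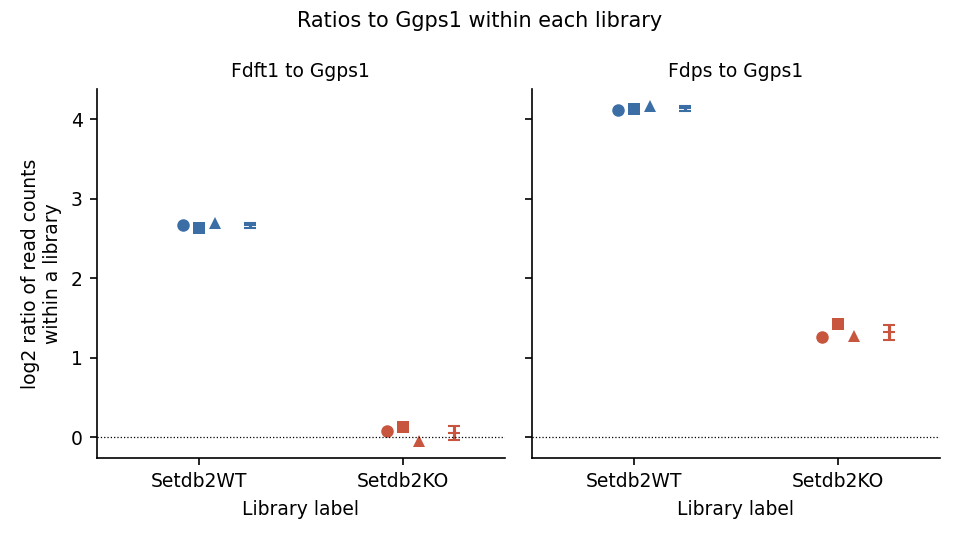
Log2 ratio of the reads of Fdft1 (left) and Fdps (right) to those of Ggps1 within each library, by label, with symbols for replicate numbers and, beside them, the mean and SD of 3 libraries. The dotted line at 0 marks equal reads, which the Fdft1 ratio reaches under Setdb2KO.

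Within the arm the order of the log2 fold changes ran from Idi1 through Hmgcs1, Mvk, Fdps, Fdft1, Acat2, Mvd and Pmvk to Ggps1. Neighbours in that order were not tested against each other, and overlap of their intervals does not show that they are equal. The 95% intervals of Hmgcs1 (-3.06 to -2.76) and Mvk overlap, as do those of Mvk and Fdps (-2.72 to -2.55) and those of Fdft1 (-2.51 to -2.36) and Acat2 (-2.46 to -2.24). The interval of Idi1 (-3.52 to -3.23) overlaps none of the others. Pmvk and Mvd, which catalyse adjacent steps, fell less than Mvk before them and Idi1 after them.

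Levels per length gave another view of the order. The length merges the annotated exons of all transcripts of a gene, so the order of levels between genes depends on the annotation. On the scale of CPM per kilobase of annotated exon, Fdps (177 ± 1.5, SD, n = 3) and Hmgcs1 (173 ± 2.7) led under Setdb2WT, and Ggps1 was last at 8.97 ± 0.13. Mvd (82.6 ± 0.83), Acat2 (73.7 ± 3.1), Idi1 (64.3 ± 1.5), Fdft1 (63.7 ± 0.57), Pmvk (47.4 ± 1.8) and Mvk (41.5 ± 0.50) lay between, and the range of Fdft1 lay within that of Idi1. In the libraries labelled Setdb2KO, Fdps still led at 28.5 ± 1.7, followed by Hmgcs1 (23.0 ± 3.0) and Mvd (22.5 ± 0.34), whose ranges overlap. Idi1 moved from the fifth place to the last, at 6.19 ± 0.81, with a range that overlaps that of Mvk at 6.31 ± 0.21. Ggps1, at 10.2 ± 0.27, was then above both.

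**Figure D4:**
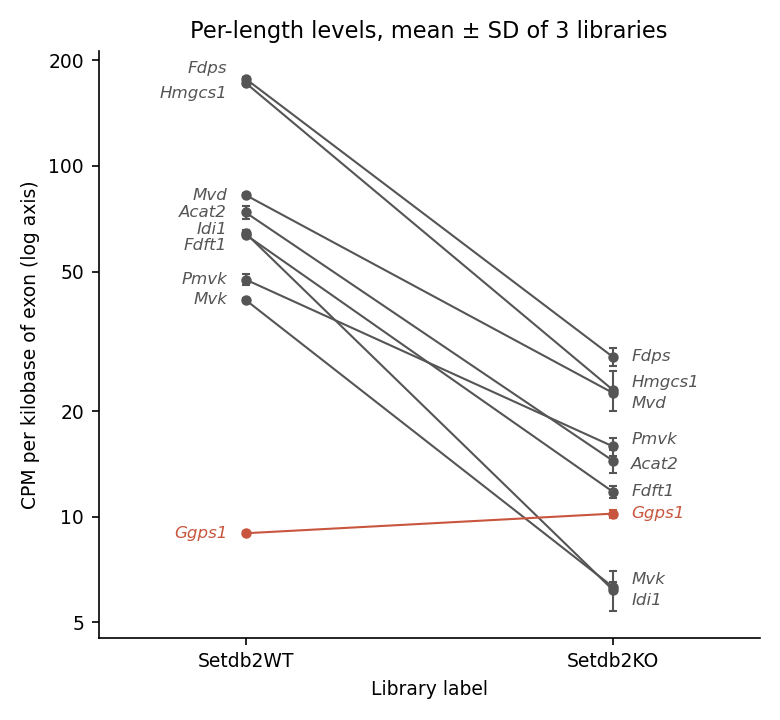
Level per length of each gene by label, in CPM per kilobase of annotated exon on a log axis, as the mean and SD of 3 libraries. The lines of 8 genes descend and cross, with Idi1 steepest, and that of Ggps1 stays near 10.

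As a share of the reads of the 9 genes, Ggps1 went from 1.58% to 1.66% under Setdb2WT to 10.2% to 10.4% under Setdb2KO. Hmgcs1 went from 30.2% to 30.6% down to 19.6% to 24.8%, and Idi1 from 8.43% to 8.75% down to 3.99% to 4.98%. Fdft1 kept a share of about the same size, 10.3% to 10.4% against 10.04% to 11.2%.

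Relative to the mean, the spread between libraries was wider under the label Setdb2KO for all 9 genes, most of all for Hmgcs1 and Idi1. How many of all genes tested share this was not counted. The part of lower read counts in it was not tested. In CPM the SD was smaller under Setdb2KO for some of the 9, such as Acat2 (2.8 against 7.8 under Setdb2WT). It was larger for others, such as Hmgcs1 (14 against 12). The coefficient of variation of the CPM was between 0.867% and 4.18% for the 9 genes under Setdb2WT. Under Setdb2KO it was 13.1% for Hmgcs1 and 13.0% for Idi1, and 1.53% to 7.54% for the other 7 genes. Setdb2KO replicate 2 had the lowest level of the 3 for these 2 genes and the highest for 6 others. Without that library the log2 fold change was -2.81 for Hmgcs1 and -3.27 for Idi1, beside -2.91 and -3.38 with all libraries. It also stood lowest under Setdb2KO for the prenylation genes Chm (70.3 against 103 and 110 CPM) and Pggt1b (52.0 against 62.9 and 65.5 CPM). The low level in that library was thus not particular to Hmgcs1 and Idi1, and how many genes share it was not counted.

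Some of these values could include reads of other genes (strand setting and treatment of reads with several matches: not given in the sources used here). In the GENCODE M21 annotation of GRCm38, no other gene held 200 bases at 90% identity or more to the longest transcript of Mvk, Pmvk or Mvd. Processed pseudogenes of that likeness numbered 5 for Fdps, 3 for Idi1 and 1 each for Fdft1 and Ggps1. Acat2 has a close copy next to it, Acat3, which shares 1477 bases at 97.7% identity. Acat3 had 29, 30 and 36 reads against 5, 12 and 18, under 1 CPM in mean in both groups, and fell too (log2 fold change -1.57, SE 0.39, adjusted p = 0.0019, edgeR). Tcp1, a chaperonin subunit whose transcript shares 445 bases with Acat2 at 98.7% identity, fell 2.41-fold (659 ± 6.4 CPM against 274 ± 6.0, SD, n = 3 each).

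Exons of 5 of the 9 genes overlap those of another annotated gene, and for Hmgcs1, Idi1 and Fdps that gene was not analysed here. The largest overlap is that of Fdps with Gm43738, a protein-coding gene on the same strand, at 1124 bases, or 26.7%, of the exons of Fdps. Its part in the level of Fdps was not tested. For Fdft1 and Ggps1 the overlapping gene lies on the other strand and rose (both were looked up after the values of the 9 genes were known). Exons of Ctsb, the lysosomal protease cathepsin B, overlap 774 bases, or 18.3%, of the exons of Fdft1. Ctsb rose 1.86-fold (285 ± 1.2 CPM against 530 ± 17, SD, n = 3 each), against the direction of Fdft1. Exons of Arid4b, a chromatin protein gene, overlap 257 bases, or 5.44%, of the exons of Ggps1. Arid4b rose 1.87-fold (47.9 ± 1.6 CPM against 89.4 ± 5.6, SD, n = 3 each), in the direction of Ggps1. The part of Arid4b reads in the small rise of Ggps1 was not tested, nor was that of Ctsb reads in the level of Fdft1.

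Mmab, which encodes a mitochondrial enzyme of cobalamin metabolism, lies head to head with Mvk across the printed interval. Mmab fell 5.82-fold (37.8 ± 1.2 CPM against 6.50 ± 0.40, SD, n = 3 each; log2 fold change -2.54, SE 0.07, adjusted p = 2.28e-13, edgeR). The 95% intervals of Mmab (-2.69 to -2.39) and Mvk (-2.81 to -2.62) overlap, but the 2 genes were not tested against each other.

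Upstream of the arm, the 3 genes that supply cytosolic acetyl-CoA were all lower (median log2 fold change -2.26), as were 42.3% of all genes tested. Slc25a1, the mitochondrial citrate carrier, fell 7.04-fold (125 ± 2.9 CPM against 17.8 ± 1.8, SD, n = 3 each). Acss2, which activates acetate, fell 4.77-fold and Acly, which splits citrate, 3.30-fold (adjusted p 1.36e-14 to 4.05e-12 for the 3 genes, edgeR). Mitochondrial genes with related reactions were listed too. Acat1, the mitochondrial thiolase, fell 4.96-fold (adjusted p = 6.92e-15, edgeR), close to the 5.10-fold fall of the cytosolic Acat2. Oxct1, which activates ketone bodies, rose 1.23-fold.

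Downstream of Fdft1, all 12 genes from squalene to cholesterol were lower, as were 42.3% of all genes tested. The median log2 fold change of the 12 was -2.51, beside -2.43 for the 9 genes of the arm. Msmo1, a methyl sterol oxidase, fell 5.72-fold (708 ± 11 CPM against 124 ± 0.50, SD, n = 3 each). Sqle and Cyp51 had log2 fold changes of -3.34 and -2.90. The smallest fall of the 12 was that of Sc5d, at 1.77-fold, which like Lbr (log2 fold change -0.88) and Ebp (-1.04) fell less than any of the 8 genes of the arm that fell. These last 3 were named after their values were seen.

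Genes of sterol sensing and uptake split in 2 directions, against 42.3% lower and 41.5% higher over all genes tested. Of the 14 listed, 8 were lower, 5 higher and 1 not passed (median log2 fold change -0.80). Among those lower, Insig1, which holds SREBP back in the endoplasmic reticulum, fell 5.64-fold and Stard4, a sterol carrier, 4.95-fold (larger adjusted p of both 7.59e-16, edgeR). Srebf2, which encodes SREBP-2, fell 1.95-fold (763 ± 9.0 CPM against 392 ± 16, SD, n = 3 each), less than any of the 8 genes of the arm that fell, and Scap, its escort, 1.55-fold. Those higher were Mylip, a ubiquitin ligase (2.88-fold), Npc1 and Npc2, which move cholesterol out of lysosomes (2.48-fold and 1.90-fold), Insig2 (1.64-fold) and the SREBP protease Mbtps1 (1.09-fold). Srebf2 and Scap were named after their values were seen.

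**Figure D5:**
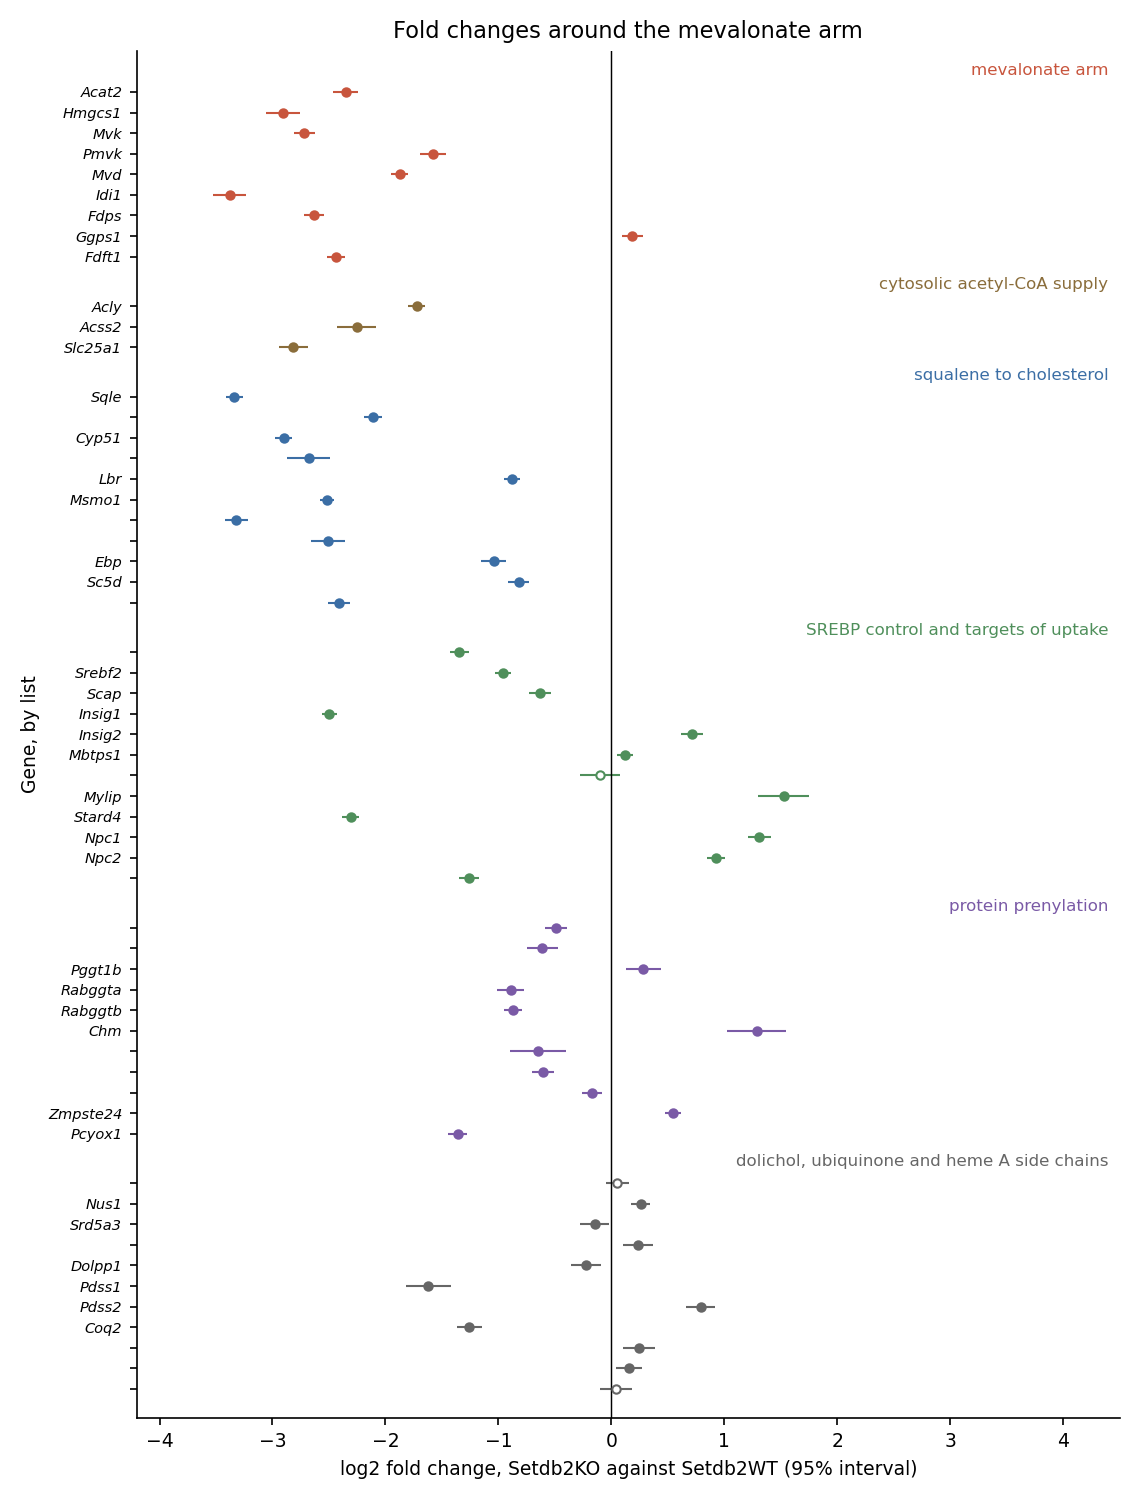
Log2 fold change with its 95% interval for the genes of the arm and of 5 lists around it (3 listed genes are left out, and only those named in the text have a label), filled where the adjusted p was under 0.05 and open where not. All genes plotted for acetyl-CoA supply and for squalene to cholesterol lie left of 0 with 8 of the 9 genes of the arm, and the users of farnesyl and geranylgeranyl groups lie mostly within 1 of 0.

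Genes that use farnesyl and geranylgeranyl groups were listed in 2 sets. Of 11 protein prenylation genes 8 fell and 3 rose, against 42.3% and 41.5% of all genes tested. Under total-count scaling 7 of the 11 fell and 3 rose. Their median log2 fold change was -0.61, and 1 fell at least 2-fold. That gene was Pcyox1, which breaks down prenylated cysteine (2.57-fold lower). Rabggta and Rabggtb, the subunits of the transferase that puts geranylgeranyl groups on Rab proteins, fell 1.86-fold and 1.83-fold (larger adjusted p 1.94e-09, edgeR). Those higher were Chm, a Rab escort protein (2.44-fold, with an SD of 21 CPM around 94.2 under Setdb2KO), Zmpste24, which trims prenylated prelamin A (1.46-fold), and Pggt1b, a subunit of another transferase of geranylgeranyl groups (1.22-fold, with overlapping groups).

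Of 11 genes for dolichol, ubiquinone, heme A and related side chains, 4 fell, 5 rose and 2 were not called. These counts are close to the shares over all genes tested, 42.3% lower and 41.5% higher. The median of the 11 was 0.052 (log2). Scaled by total counts, 2 fell and 7 rose. Pdss1 and Pdss2, the subunits of the enzyme that makes the ubiquinone side chain, moved in opposite directions. Pdss1 fell 3.07-fold and Pdss2 rose 1.73-fold (larger adjusted p of both 1.49e-08, edgeR). Coq2, which attaches that chain, fell 2.39-fold, and Nus1, a subunit of the dolichol chain enzyme, had a log2 fold change of 0.26. Srd5a3 and Dolpp1 of the dolichol route had log2 fold changes of -0.15 and -0.23.

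Outside the lists, 5 genes with a mean of at least 5 CPM came nearest to the mean profile of the 9 genes over the 6 libraries. Likeness was measured as the root mean square distance of mean-centred log2 CPM, which was 0.0258 for Tuba4a, 0.0260 for Thbs1, 0.0263 for Fam149a, 0.0330 for Tkt and 0.0349 for Tmem132a. Tuba4a, a tubulin, stood at 296 ± 4.8 CPM against 64.4 ± 1.1, and Tkt, transketolase of the pentose phosphate pathway, at 848 ± 15 CPM against 185 ± 5.9 (SD, n = 3 each). The 6 libraries form 2 groups, so this measure mainly compares the size of the difference between them. The mean profile includes Ggps1, which rose. The log2 fold changes of the 5 genes ran from -2.20 (Tuba4a) to -2.16 (Tmem132a), beside a median of -2.43 for the 9.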

How the data were processed

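Total RNA of 6 MPC5 libraries was measured by RNA-seq. The authors deposited 1 table of unnormalized counts, a row for each gene and a column for each library. The tools behind it were fastp, HISAT and HTSeq and the genome build was GRCm39, as named without roles per the submitters' processing notes. Not given in the sources used here are versions, annotation and strand setting. Columns were matched to samples by genotype and number, and groups were taken from the labels.

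The 9 genes, the lists and the tests were chosen with earlier results of these data known. Counts were tested over all genes with edgeR 4.0.16 (R 4.3.3) by the quasi-likelihood F test, with TMM factors, genes kept by filterByExpr (minimum count 10), a single genotype term and calls at a Benjamini-Hochberg adjusted p under 0.05. Fold changes are those of that fit (prior count 0.125). Standard errors were derived from the fold change and its F statistic, and the 95% intervals from these standard errors. Levels per length divide CPM by the merged exon length in GENCODE M21 (GRCm38), a build that differs from the authors' own. Copies were searched with BLAST 2.17.0. Promoters were matched by symbol in a RefSeq table of GRCm38.p6.

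Named were all 9 genes, Setdb2, up to 4 genes per list by adjusted p with a mean of at least 1 CPM, genes against the majority of their list, and close copies and neighbours (Idi2 was not analysed here). Some genes that this rule names are not reported here, although the counts and medians of their lists include them. The scripts were tested on simulated data. Alternatives were other scalings, the DESeq2 1.42.0 Wald test, limma-voom (limma 3.58.1), other filters, a replicate block, leaving out each library and, for the ratios, a pseudocount of 1. Depth was 36461449 to 37129174 reads per library.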

Additional observations from a re-analysis of the deposited data

How the results depend on the processing

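The counts of 8 genes lower and 1 higher held in all 14 alternatives run for them, and no log2 fold change of the 9 genes changed its sign or its side of the threshold. The median log2 fold change of the 9 genes lay between -2.46 and -2.28, the latter under total-count scaling, where its move exceeded the spread between libraries. The log2 fold change of Ggps1 ran from 0.16 (without Setdb2WT replicate 3) to 0.34 (total-count scaling), with an adjusted p of 6.17e-06 to 0.014. Over all genes tested, 4833 to 6105 were lower and 5092 to 6550 higher. No pairing by replicate number was seen, since deviations of same-numbered libraries correlated at -0.011, -0.065 and 0.0097. Not every library correlated best with its own number. With 3 libraries per group, these correlations cannot show whether same-numbered libraries were handled together. With the replicate block, 8 of the 9 genes were lower and 1 higher, and 5661 genes were lower and 5529 higher over all genes, with a median of -2.44 for the 9. The Fdft1 and Fdps ratios to Ggps1 moved by -2.66 to -2.57 and by -2.87 to -2.79 on the log2 scale, and as differences between same-numbered libraries (replicate block) by -2.62 and -2.82, with an exact sign-flip p of 0.25, the smallest that 3 pairs allow. With 633 reads or more per gene and library, depth does not limit the 9 genes, whereas Acat3 and Setdb2 rest on few reads.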
